A study of Mus musculus with 137 samples.

Results

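The comparison described here set the duodenal villus of mice that drank 60 ppm hexavalent chromium, Cr(VI), for 7 days against the villus of mice that drank water without it. It takes in 10 libraries, 5 in each group, chosen by their labels for villus, dose and time, and the series holds 127 others. All 10 came from wildtype female B6C3F1 mice, a hybrid of inbred strains, and the exposed mice received Cr(VI) as sodium dichromate dihydrate in water taken at will. The study calls this time day 8. Crypts were cut away by microdissection from a mounted section of formalin-fixed, paraffin-embedded duodenum, and the villus tissue left on the slide was scraped off. The crypt libraries came from the adjacent section of the same animals, from which the villi had been removed. The ages of the mice are not given in the sources used here. RNA was read out with TempO-Seq, in which short probe pairs anneal to a transcript, are ligated and amplified, and are counted by sequencing. Each value is therefore a count for a probe, given here as CPM, the count scaled to the TMM-adjusted library size, and not as a level per transcript length, so levels are compared between mice and never between genes. Neighbouring libraries used for contrast were the villi of 4 mice at 180 ppm on day 8, the crypts of 5 untreated and 5 exposed mice at 60 ppm on day 8, and the villi of 4 untreated mice and 5 mice at 60 ppm on day 91, after 90 days of exposure. Lower doses set beside them were the villi of day 8 from 5 mice each at 0.1 and 1.4 ppm and 4 mice each at 5 and 20 ppm.

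The villus is the absorptive finger of the small intestine. Enterocytes are born in the crypt, move up the villus over a few days while they build a brush border of digestive enzymes and transporters, and are shed at the tip. Cr(VI) enters cells as chromate and is reduced there. NRF2 is a transcription factor that drives glutathione and detoxification genes under electrophilic or oxidative stress, SREBP2 drives cholesterol synthesis and uptake genes when sterols in the membrane run low, and MTF1 drives metallothioneins and the zinc exporter Slc30a1 when free zinc rises.

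Total counts ran from 2405384 to 4054136 in the untreated libraries and from 1463938 to 3119947 in the exposed libraries, with 13832 to 20394 and 13730 to 15456 probes detected. Per-mouse values below follow the order of mice 46, 47, 48, 49 and 50 for the untreated group and mice 446, 447, 448, 449 and 450 for the exposed group. The enterocyte gene Vil1, which encodes the brush border protein villin, measured 8265, 9825, 5084, 8577 and 7352 CPM in the untreated mice and 5599, 8024, 5351, 3883 and 5759 CPM in the exposed mice, and all 10 libraries carried it. Mouse 447 went against the duodenal label. Fabp6, an ileal bile acid binding protein, measured 0, 2.01, 5.40, 0 and 0 CPM in the untreated mice and 3.83, 19907, 0.404, 0 and 0.302 CPM in the exposed mice, so that 1 library held nearly all of it. The ileal bile acid transporter Slc10a2 stood at 816 CPM in that library, and Gata4, a transcription factor of the proximal small intestine, had 0 counts. The crypt library of mouse 447 was alike, with 6779 CPM of Fabp6, 169.6 CPM of Slc10a2 and 0 counts of Gata4. Across the other 135 libraries Fabp6 never passed 9.79 CPM, Slc10a2 never passed 15.1 CPM and Gata4 never fell below 2.97 CPM. The villus library of mouse 447 was also the shallowest of the series, at 1463938 counts.

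A second library stood apart among the controls. The untreated villus library of mouse 48 carried crypt genes, with 2429.6 CPM of the Paneth cell lysozyme Lyz1 against 760.1, 1122, 2429.6, 342 and 660.4 CPM over the 5 controls, and it had 240.6 CPM of the villus tip nucleotidase Enpp3 against 2988, 3126, 240.6, 3564 and 3556 CPM. Over all tested genes, its correlation was 0.935 with the mean untreated crypt and 0.907 with the mean untreated villus of day 8. These means left out the library compared, the villus of mouse 48 and the crypt of mouse 49. Mouse 50 also lay nearer the crypt, at 0.932 and 0.912, although its Lyz1 and Enpp3 were like those of mice 46, 47 and 49. Those mice lay nearer the villus. Mice 48 and 50 also had the most probes detected, 20394 and 18861 against 13832 to 15141 in the other controls, and the part of depth in these correlations was not tested. Summed over the 17 tested markers of pancreatic acinar cells, whose tissue lies against the duodenum, the controls measured 21222, 5679.6, 10184, 40114 and 37.4 CPM and the exposed libraries 11921, 35.6, 11378, 5080.3 and 291 CPM. That spread covered both groups, and the part of acinar RNA in the results was not tested. The main comparison, its gene lists, and the tests against 180 ppm, crypt and day 91 were therefore also computed without mouse 447, and without mice 447 and 48 together. The latter pair was chosen after these values were seen. Changes of other doses, of the crypt and of day 91 against their own controls were computed with all libraries only.

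**Figure D1:**
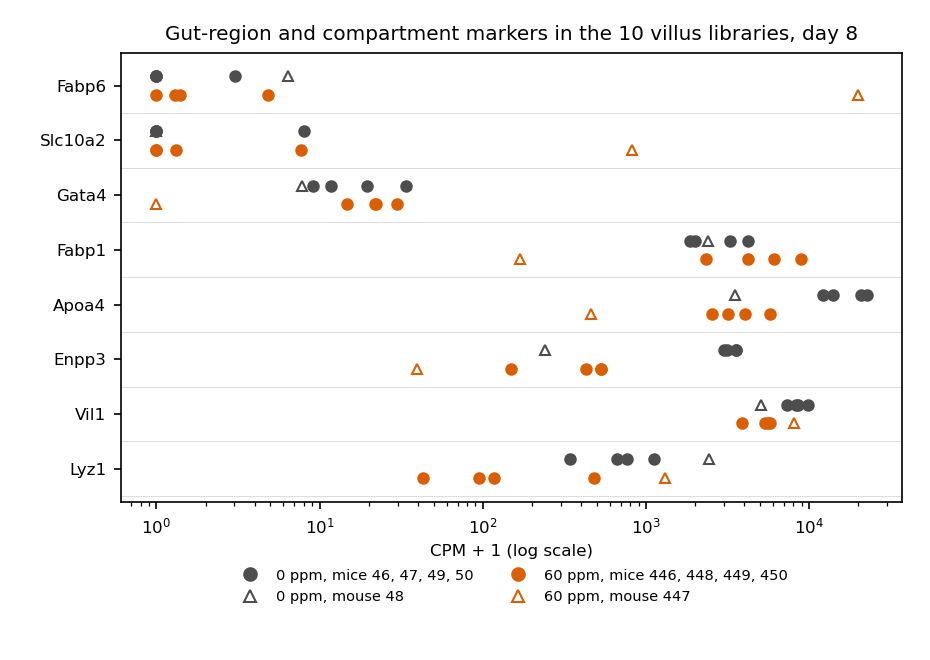
CPM plus 1, on a log scale, for ileal (Fabp6, Slc10a2), proximal (Gata4, Fabp1), villus (Apoa4, Enpp3, Vil1) and Paneth cell (Lyz1) genes in the 10 villus libraries at day 8, 1 point per mouse. Mouse 447 (orange triangle) sits far to the right for Fabp6 and Slc10a2 and at 0 for Gata4, and mouse 48 (grey triangle) has the highest Lyz1 and the lowest Enpp3 of the controls.

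At 60 ppm and day 8, 1581 genes differed between exposed and untreated villi, 708 with a probe that was higher and 876 with a probe that was lower. The test was edgeR's quasi-likelihood test in a fit of all 28 groups, with Benjamini-Hochberg adjustment over 26365 probes and a threshold of 0.1, and the labels do not say whether mice shared a cage or a section batch. Taking 1 probe for each of 18998 genes, 3.03% of genes were higher and 4% were lower, and these shares are the background for the gene lists below. The shares were 3.86% and 5.1% without mouse 447, 3.47% and 3.62% without mouse 48, and 4.13% and 4.38% without both. Without mouse 447 the number of genes rose to 1981, of which 1390 were shared in the same direction. Leaving out mice 447 and 48 gave 1860 genes, with 923 higher and 938 lower and 1254 shared. Fitted on the 10 libraries alone, the comparison gave 370 genes, and 1039 once those 2 libraries were dropped. Among the 576 genes called higher on their main probe, 12 had mouse 447 as the only exposed library above the range of the controls, and in 196 the other 4 exposed mice were all above that range while mouse 447 was not. Of 7934 genes with a mean of at least 10 CPM in a group, 4.21% had exposed and untreated libraries that did not overlap, with 1.36% higher and 2.85% lower.

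Among the leading genes that fell, Pck1 encodes phosphoenolpyruvate carboxykinase, which commits carbon to gluconeogenesis. It measured 959, 426, 334, 1050.4 and 956 CPM in the untreated mice and 37.02, 14.5, 2.02, 5.52 and 18.4 CPM in the exposed mice, a log2 fold change of -5.52 ± 0.58 (SE, adjusted p = 3.5e-12). Every exposed mouse stood far below every untreated one. Tsc22d3, the glucocorticoid-induced leucine zipper, measured 371, 374, 234, 394 and 263 CPM in the untreated mice and 43.4, 68.4, 55.7, 37.3 and 33.8 CPM in the exposed mice, a log2 change of -2.79 ± 0.33 (SE, adjusted p = 2e-10). Sgk1, a kinase induced by glucocorticoids and aldosterone that acts on sodium transport, measured 153, 114, 24.8, 117 and 79.9 CPM in the untreated mice and 17.2, 9.45, 9.70, 8.06 and 4.83 CPM in the exposed mice. Its log2 change was -3.28 ± 0.51 (SE, adjusted p = 1.8e-06), and mouse 48 was the control nearest to the exposed range. Selenop encodes the plasma selenium carrier selenoprotein P, and it measured 1930.5, 1915, 684, 2733 and 2233 CPM in the untreated mice and 80.7, 598, 113, 73.4 and 121 CPM in the exposed mice. Its log2 change of -3.29 ± 0.43 (SE, adjusted p = 1.2e-08) became -4.28 without mouse 447, whose value lay just under that of mouse 48.

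Further falls were in lipid, drug and nucleoside handling. The fatty acid translocase Cd36 measured 40.7, 47.6, 33.2, 68.5 and 99.8 CPM in the untreated mice and 0, 8.34, 4.04, 0 and 6.34 CPM in the exposed mice, with 0 counts in 2 of the exposed mice and a log2 change of -4.03 ± 0.57 (SE, adjusted p = 1.3e-07). Cyp2b10, a cytochrome P450 and the usual marker of the xenobiotic receptor CAR, measured 728, 632, 320.8, 757 and 656 CPM in the untreated mice and 143, 0, 48.1, 18.2 and 39.6 CPM in the exposed mice, a log2 change of -3.58 ± 0.56 (SE, adjusted p = 1.8e-06). Ephx2, the soluble epoxide hydrolase, measured 2382, 2322, 1138, 2345 and 1741 CPM in the untreated mice and 769, 41.7, 533, 405.7 and 555 CPM in the exposed mice. The groups did not overlap, and mouse 447 was the lowest of the 10. The log2 change of Ephx2 was -2.10 ± 0.32 (SE, adjusted p = 1.5e-06). Log2 changes of the remaining 5 leading genes, which were lower without overlap, were -2.47 for Asb13, part of a ubiquitin ligase, -2.82 for Tymp, thymidine phosphorylase, -2.34 for Iyd, which recovers iodide from iodotyrosines, -2.67 for Proz, the vitamin K-dependent protein Z, and -2.34 for the predicted gene Gm42742.

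Among the genes that rose without overlap between the groups, Epha2 had the smallest adjusted p. It encodes an ephrin receptor kinase of epithelial surfaces and measured 153, 219, 77.7, 197 and 138 CPM in the untreated mice and 615, 225, 1218, 928 and 1072 CPM in the exposed mice, a log2 change of 2.38 ± 0.31 (SE, adjusted p = 1.2e-08). In 4 exposed mice it was at least 615 CPM, and mouse 447 was just above the highest control. Abcb1a, an apical drug efflux pump, measured 82.1, 109, 92.3, 131 and 114 CPM in the untreated mice and 483.2, 385, 349, 306 and 696 CPM in the exposed mice, a log2 change of 2.07 ± 0.29 (SE, adjusted p = 1.2e-07). Every exposed mouse stood above every control. The epidermal growth factor family ligand Nrg1 measured 7.25, 4.69, 9.44, 7.66 and 16.8 CPM in the untreated mice and 17.9, 20.6, 85.6, 166 and 108 CPM in the exposed mice, a log2 change of 3.06 ± 0.51 (SE, adjusted p = 9.6e-06), with mice 446 and 447 close to the controls and the other 3 well above. Bcl2l15, a BCL2 family member, measured 0.403, 16.8, 51.8, 3.40 and 21.1 CPM in the untreated mice and 124, 512, 103, 221 and 474 CPM in the exposed mice, a log2 change of 3.83 ± 0.631 (SE, adjusted p = 6.9e-06), with mouse 447 the highest of the 10.

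The other leading genes covered transcription, stress and membrane functions. Atf4, the transcription factor of the integrated stress response, measured 87.8, 135, 135, 95.7 and 147 CPM in the untreated mice and 193, 259.7, 330.0, 374 and 250.4 CPM in the exposed mice, a log2 change of 1.22 ± 0.21 (SE, adjusted p = 3.2e-05). Polr1d, a subunit shared by RNA polymerases I and III, rose by 1.54 on the log2 scale, Nup50, a nuclear pore protein, by 1.70, Plscr1, a phospholipid scramblase, by 2.04, Ppia, the prolyl isomerase cyclophilin A, by 1.25, and the predicted gene Gm10639 by 3.07. All 23 of these leading genes, 11 higher and 12 lower, kept their direction and stayed past the threshold in all 23 other settings of the test, which included leaving out each mouse in turn. They had been chosen for the smallest adjusted p and no overlap in these same libraries. Leaving out 1 mouse could therefore not reverse them, and this count is not separate support for them.

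**Figure D2:**
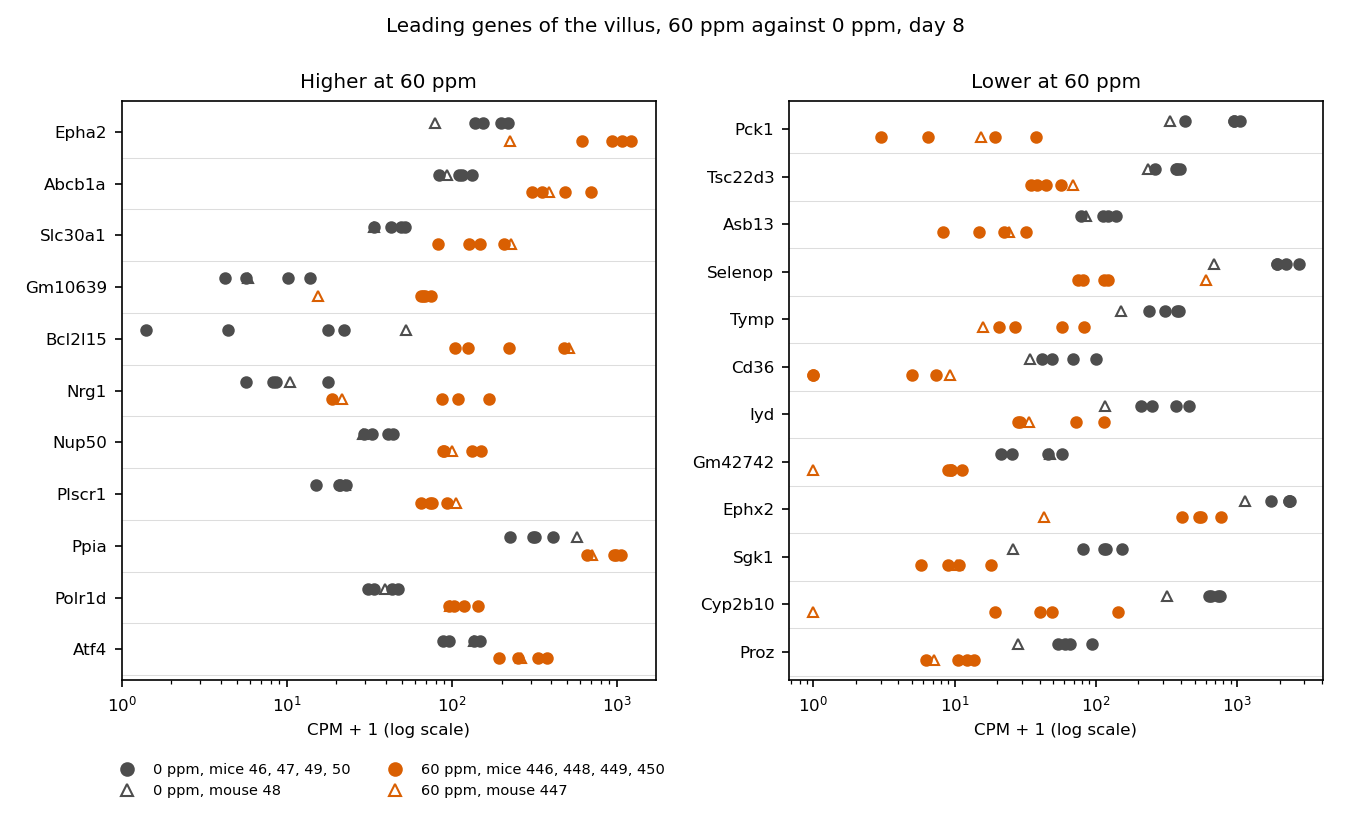
CPM plus 1, on a log scale, of the 11 higher and 12 lower leading genes, ranked by adjusted p within the genes without overlap, 1 point per mouse and no averaging. Grey points are untreated and orange points are exposed villi at day 8; triangles mark mice 48 and 447. Mouse 447 is the exposed point nearest the controls for genes that include Epha2, Gm10639, Tsc22d3, Selenop and Cd36.

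Some genes of zinc handling rose. Of 15 tested members of the metallothionein and zinc transporter list, 3 rose, against a median log2 change of -0.05 in the list and -0.14 over all genes. Mt2, a cysteine-rich protein that binds zinc and copper, measured 2.01, 0, 6.47, 2.13 and 3.84 CPM in the untreated mice and 134, 20.6, 62.2, 139.6 and 23.6 CPM in the exposed mice. Its log2 change was 4.60 ± 0.86 (SE, adjusted p = 9.6e-05), and every exposed mouse was above every control. Mt1, its neighbour and close paralog, measured 6.44, 0, 1.62, 5.11 and 0 CPM in the untreated mice and 39.3, 0, 23.0, 4.24 and 9.06 CPM in the exposed mice, a log2 change of 2.84 ± 0.94 (SE, adjusted p = 0.0606), with mouse 447 at 0 counts. Slc30a1, the plasma membrane zinc exporter, measured 41.9, 32.9, 32.9, 48.1 and 51.4 CPM in the untreated mice and 147, 227, 205, 125.6 and 81.5 CPM in the exposed mice, a log2 change of 1.92 ± 0.30 (SE, adjusted p = 3e-06). The controls measured at most 6.47 CPM for Mt2 and 6.44 CPM for Mt1, where 3 counts make 0.72 to 1.28 CPM, so these fold changes rest on few counts. Mt1 did not pass without mouse 48. Under DESeq2 2 members rose and 1 fell.

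The start regions of these 3 genes are shown because all of them rose and the metal response element, bound by MTF1, has a short core. Sequences run from 250 bases before to 50 bases after the start given by RefSeq on GRCm38.p6, 5′ to 3′ on the gene's strand, and capitals mark matches to TGCACNC or TGCGCNC on either strand. They lie at chr8:94178839-94179138 for Mt1, chr8:94172368-94172667 for Mt2 and chr1:191906531-191906830 for Slc30a1, all on the plus strand.
Mt1: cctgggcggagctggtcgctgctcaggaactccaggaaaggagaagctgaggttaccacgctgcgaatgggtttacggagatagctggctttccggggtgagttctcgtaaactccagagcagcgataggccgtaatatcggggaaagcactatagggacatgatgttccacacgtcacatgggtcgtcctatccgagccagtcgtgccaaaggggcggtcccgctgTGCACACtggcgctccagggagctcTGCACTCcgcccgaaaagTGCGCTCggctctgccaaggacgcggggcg
Mt2: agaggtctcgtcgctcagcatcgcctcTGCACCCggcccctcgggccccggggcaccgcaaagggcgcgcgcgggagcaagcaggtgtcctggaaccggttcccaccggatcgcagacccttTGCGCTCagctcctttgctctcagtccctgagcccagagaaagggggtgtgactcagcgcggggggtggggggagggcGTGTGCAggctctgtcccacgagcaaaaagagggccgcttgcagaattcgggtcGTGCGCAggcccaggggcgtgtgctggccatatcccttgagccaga
Slc30a1: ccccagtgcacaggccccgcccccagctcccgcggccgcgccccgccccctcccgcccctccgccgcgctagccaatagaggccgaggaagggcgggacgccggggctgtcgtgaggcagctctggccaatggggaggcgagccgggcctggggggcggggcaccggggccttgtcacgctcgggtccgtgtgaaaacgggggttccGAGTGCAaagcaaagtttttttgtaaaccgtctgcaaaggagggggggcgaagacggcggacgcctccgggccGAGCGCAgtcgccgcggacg
Mt1 held 3 matches, Mt2 held 4 and Slc30a1 held 2. Of 27025 promoters of this length, 25.6% held at least 1 match, and so did 8 of the 14 members of the list with a sequence, among them Slc30a2, Slc30a4, Slc30a5, Slc30a10 and Slc39a5, none of which passed the test. A match is a run of letters, not a measured binding site.

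Of 34 tested NRF2 targets, 11 rose and 2 fell, against 3.03% and 4% of all genes, with a median log2 change of 0.38. The rise was carried by 4 of the 5 exposed mice. Gsta1, a glutathione S-transferase, measured 616, 721, 799.6, 514 and 728 CPM in the untreated mice and 4587, 152, 4163, 3777 and 2838 CPM in the exposed mice, a log2 change of 2.20 ± 0.39 (SE, adjusted p = 4.2e-05). Every exposed mouse but 447 was more than 3 times the highest control, and mouse 447 was the lowest of all 10. Gsta4, which conjugates lipid aldehydes, measured 80.5, 104, 48.8, 68.5 and 62.4 CPM in the untreated mice and 724, 15.0, 593, 408 and 318 CPM in the exposed mice, a log2 change of 2.51 ± 0.41 (SE, adjusted p = 6.5e-06), with the same order. Akr1b8, an aldo-keto reductase, measured 7.65, 26.1, 13.2, 24.7 and 6.72 CPM in the untreated mice and 113, 6.67, 204, 207.97 and 73.1 CPM in the exposed mice, a log2 change of 2.99 ± 0.55 (SE, adjusted p = 6.5e-05). Another 8 members rose too, with log2 changes of Gsta2 (1.68), Cbr3 (1.68), Gsta3 (1.31), Pgd (1.24), Gsr (1.02), Esd (0.97), Nqo1 (0.88) and Prdx1 (0.78). Gsta1, Gsta2 and Gsta3 are close paralogs, so their probes may share reads.

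Summed over the list, the controls measured 10532, 12548, 6903, 9081 and 8804 CPM and the exposed libraries 19006, 4397, 18582, 16022 and 14342 CPM. Mouse 447 thus had the lowest sum of the 10 libraries while the other 4 exposed mice lay above all controls. Without mice 447 and 48, 13 members rose and 2 fell. Members of the list did not move as 1 block. Hmox1, heme oxygenase 1, measured 0, 6.03, 0, 0 and 0 CPM in the untreated mice and 4.47, 0, 2.42, 0 and 0 CPM in the exposed mice, at or near the limit of counting in all mice. The 2 that fell were Cat, catalase, at -1.05, and Ephx1, microsomal epoxide hydrolase, at -1.26.

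Gsta3 and Prdx1, a peroxiredoxin, are shown as the members that rose and held the antioxidant response element core TGACNNNGC, marked in capitals on either strand. They lie at chr1:21240335-21240634 and chr4:116685349-116685648 on GRCm38.p6, both on the plus strand, with the same window as above.
Gsta3: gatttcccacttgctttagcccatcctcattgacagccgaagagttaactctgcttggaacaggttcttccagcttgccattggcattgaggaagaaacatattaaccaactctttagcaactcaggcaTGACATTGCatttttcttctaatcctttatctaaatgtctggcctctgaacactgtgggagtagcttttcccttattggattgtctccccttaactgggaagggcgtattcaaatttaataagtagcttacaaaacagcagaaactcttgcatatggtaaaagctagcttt
Prdx1: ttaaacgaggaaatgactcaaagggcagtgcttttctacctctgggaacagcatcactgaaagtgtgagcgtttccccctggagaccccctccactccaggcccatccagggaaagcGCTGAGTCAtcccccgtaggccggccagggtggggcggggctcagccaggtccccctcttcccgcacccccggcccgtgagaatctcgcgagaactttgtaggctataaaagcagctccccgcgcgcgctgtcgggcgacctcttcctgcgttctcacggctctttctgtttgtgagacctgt
The core was present in 9 of 30 NRF2 targets with a sequence (Gclm, Srxn1, Abcc2, Abcc4, G6pdx, Me1, Ugdh, Prdx1 and Gsta3) and in 12.5% of all promoters of this length. Gclm and Srxn1, which held it, had log2 changes of -0.69 (0.176) and -0.29 (0.659), with adjusted p in parentheses.

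Some genes of cholesterol synthesis and uptake rose. Of 24 tested members 11 rose, with a median log2 change of 1.09, and the other 13 did not pass. Mvk and Pmvk, consecutive kinases of the mevalonate pathway, did not overlap between the groups. Mvk measured 8.45, 13.7, 18.3, 21.7 and 8.40 CPM in the untreated mice and 45.003, 46.2, 49.7, 32.3 and 92.4 CPM in the exposed mice, and Pmvk measured 16.5, 10.7, 23.2, 16.6 and 21.1 CPM in the untreated mice and 37.7, 85.6, 50.1, 67.5 and 60.1 CPM in the exposed mice. Their log2 changes were 1.95 ± 0.40 (SE, adjusted p = 0.00048) and 1.73 ± 0.33 (SE, adjusted p = 0.00012). Farther down the pathway the log2 changes were 1.20 for Idi1, 1.53 for Fdps, 1.01 for Fdft1, 1.17 for Msmo1, 1.39 for Nsdhl and 2.84 for Hsd17b7.

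Some members of this list rested on mouse 447. Sqle, squalene epoxidase, measured 24.96, 19.4, 35.9, 23.4 and 11.04 CPM in the untreated mice and 25.5, 227, 20.6, 39.5 and 44.7 CPM in the exposed mice, and its adjusted p went from 0.00818 to 0.485 without that mouse. Hmgcs1, HMG-CoA synthase, went from 0.033 to 0.25, with 149.6 CPM in mouse 447 and at most 86.0 CPM in the other exposed mice. Fdft1 did not pass without that mouse either. The fit without it called 9 of 24 higher, among them 1 that had not passed before, and without mice 447 and 48 the number was 10. The sterol regulatory element TCACNCCAC was present in 1 of 16 members with a sequence, Hmgcs1, and in 1.22% of all promoters of this length.

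**Figure D3:**
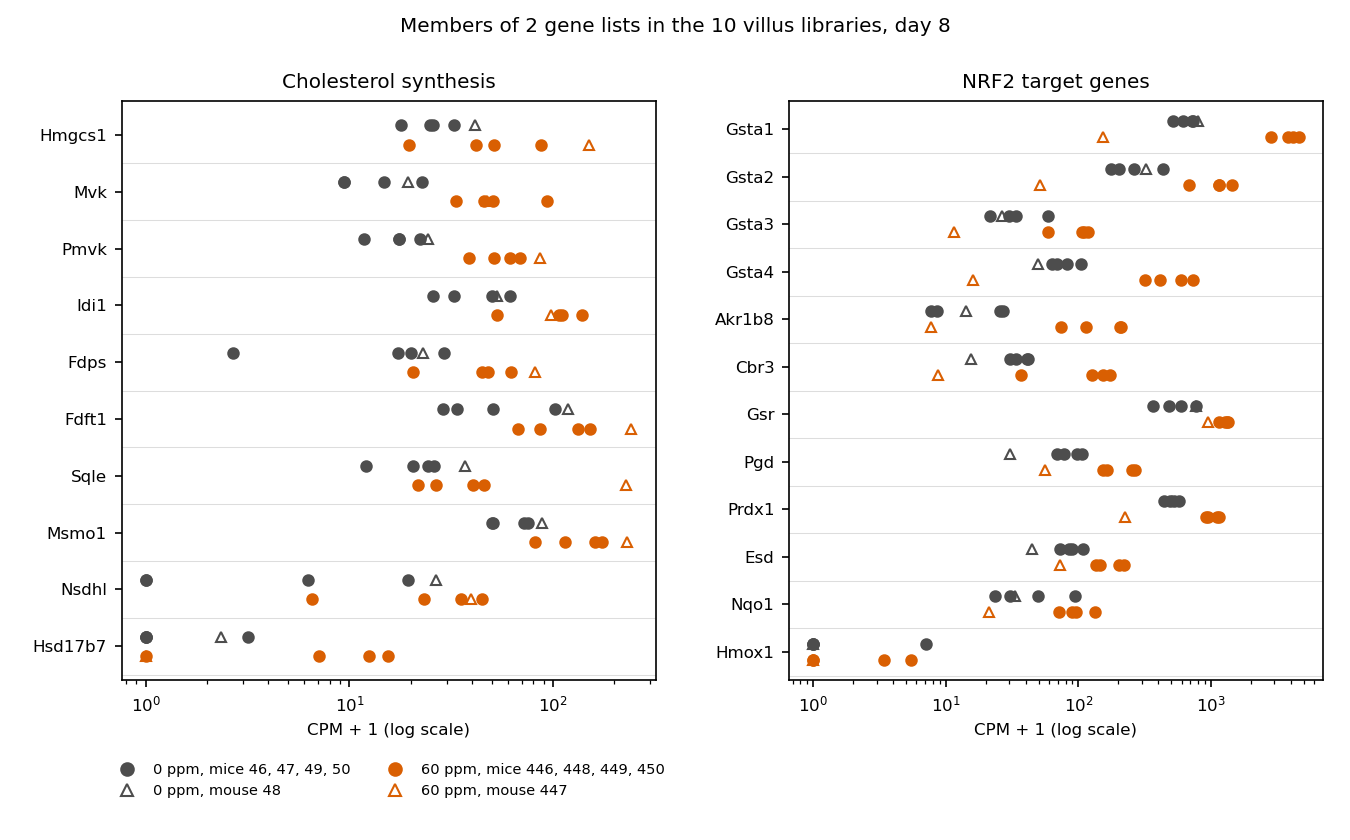
CPM plus 1, on a log scale, of 10 cholesterol genes (left) and 12 NRF2 targets (right) in the 10 villus libraries at day 8, 1 point per mouse. In the left panel mouse 447 (orange triangle) is the highest point for Sqle and Hmgcs1; in the right panel it is the lowest point for Gsta1 to Gsta4, and the 4 other exposed mice lie above the controls for Gsta1, Gsta2 and Gsta4.

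Some genes of the mature, absorbing enterocyte fell. Of 22 villus enterocyte markers 5 fell, against 4% of all genes, and the median log2 change was -0.56. Apoa4, an apolipoprotein of chylomicrons made by upper villus cells, measured 12147, 14048, 3489, 20777 and 22444 CPM in the untreated mice and 4019, 458, 3179, 2516 and 5727 CPM in the exposed mice, a log2 change of -2.20 ± 0.44 (SE, adjusted p = 0.00033). Mouse 48 lay inside the exposed range and the other 4 controls lay above it. Slc2a2, the basolateral glucose transporter, measured 65.6, 38.6, 46.4, 71.0 and 37.2 CPM in the untreated mice and 14.4, 4.45, 3.23, 13.2 and 17.2 CPM in the exposed mice, a log2 change of -2.20 ± 0.45 (SE, adjusted p = 0.00049), with no overlap. Ada, adenosine deaminase, fell by 3.67 on the log2 scale, Apoa1 fell by 1.52 and Apob fell by 1.02. The structural marker Vil1 had a log2 change of -0.45 (0.195) and Klf4, a factor of differentiated epithelium, one of 0.248 (0.743). Of the 22, 9 fell without mouse 447, 8 without mouse 48 and 9 without both.

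Digestive enzymes of the brush border fell in 8 of 23 and rose in 1. Treh, trehalase, had a log2 change of -2.01 ± 0.34 (SE, adjusted p = 1.7e-05). Mgam, which splits starch, measured 8848, 9272, 3304, 6064 and 4990.3 CPM in the untreated mice and 2836, 4038, 1577, 1106 and 2523 CPM in the exposed mice, and mouse 447 overlapped the controls. The peptidase Ace had a log2 change of -1.83. The 1 that rose, Naaladl1, measured 2.01, 11.4, 28.1, 22.5 and 39.1 CPM in the untreated mice and 4.47, 677, 12.1, 0 and 28.7 CPM in the exposed mice and reversed to -0.85 without mouse 447. Among transporters of sugars, amino acids and peptides, 8 of 23 fell and 1 rose. Slc6a20a, a proline transporter, Slc7a15, an amino acid transporter, and Slc16a10, which carries aromatic amino acids, did not overlap between groups, with log2 changes of -1.56, -2.30 and -1.52. Slc6a19, the main neutral amino acid transporter, had one of -1.13, and Slc7a7 rose by 1.13.

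The villus is zoned from bottom to tip. Of 12 tip markers 4 fell and 2 rose. Enpp3 measured 2988, 3126, 240.6, 3564 and 3556 CPM in the untreated mice and 429.6, 38.4, 528.8, 147 and 527.04 CPM in the exposed mice, a log2 change of -3.00 ± 0.43 (SE, adjusted p = 2.3e-07), and apart from mouse 48 every control was more than 5 times the highest exposed mouse. Of the 12 markers of the middle 2 fell and 1 rose, and of the 10 of the bottom 1 fell and 2 rose, Lypd8 by 0.97 and Reg3g by 2.62. Reg3g did not pass without mouse 447, which left 1 of the bottom list higher, and 0 were lower without mouse 48. The 2 tip genes that rose were Pmp22, which had 48.4 CPM in mouse 447 and at most 1.81 CPM elsewhere, and Cdh1, and without mice 447 and 48 the tip list had 0 higher. In scraped tissue fewer cells of a type and less RNA per cell cannot be told apart.

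Of 26 genes of lipid uptake and chylomicrons 8 fell and 1 rose. Beside Cd36 and Apoa4, Apoc3 measured 275, 471, 201, 731 and 607 CPM in the untreated mice and 113, 20.02, 61.4, 81.1 and 125 CPM in the exposed mice, a log2 change of -2.48 ± 0.45 (SE, adjusted p = 4.5e-05), with no overlap. Npc1l1, the intestinal cholesterol importer, had a log2 change of -1.46 ± 0.28 (SE, adjusted p = 0.00013), and Apoc2 one of -1.64. Plin2, which coats lipid droplets, was the 1 that rose, and 3 rose without mouse 447. Plin2 measured 146, 136.8, 205, 184 and 392 CPM in the untreated mice and 548, 171, 587, 709.6 and 628 CPM in the exposed mice, a log2 change of 1.31 ± 0.24 (SE, adjusted p = 9.3e-05). Among PPAR targets and fatty acid oxidation genes 6 of 31 fell. Angptl4, a lipase inhibitor, measured 115, 192, 64.5, 122 and 106 CPM in the untreated mice and 24.9, 0, 30.7, 21.2 and 16.9 CPM in the exposed mice, and Pdk4, which shuts off pyruvate oxidation, fell by 2.69. Angptl4 and Pdk4 did not overlap between groups. Beside Pck1, the gluconeogenic enzyme Fbp1 fell by 3.44 and Pcx fell by 1.06, so that 3 of 11 genes of gluconeogenesis and fructose use fell.

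Of 55 genes of drug metabolism 12 fell and 2 rose. Beside Cyp2b10, the P450 genes Cyp3a25, Cyp3a11 and Cyp2c55 had log2 changes of -2.23, -2.47 and -1.84, and each belongs to a family of close paralogs whose probes may share reads. The nuclear receptors that control them were lower as well. Nr1i3, which encodes CAR, measured 198, 256, 157, 272 and 155 CPM in the untreated mice and 83.6, 0, 54.1, 59.4 and 101 CPM in the exposed mice, a log2 change of -1.75 ± 0.36 (SE, adjusted p = 0.00054), and Nr1i2, which encodes PXR, had one of -1.01. Neither overlapped. The 2 that rose were Abcb1a and Aldh1a1, a retinaldehyde dehydrogenase, at 1.995. Without mouse 447, 6 rose and 10 fell.

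Of 14 markers of intraepithelial and other T cells 6 fell, with a median log2 change of -1.44. Gzma, a granule protease, measured 612, 710.4, 189, 473 and 302 CPM in the untreated mice and 39.9, 199, 43.6, 73.0 and 56.2 CPM in the exposed mice, a log2 change of -2.51 ± 0.38 (SE, adjusted p = 1.4e-06). Trdc, the constant chain of the gamma-delta receptor, measured 36.2, 69.7, 25.6, 66.4 and 40.3 CPM in the untreated mice and 3.19, 28.9, 3.64, 5.52 and 0 CPM in the exposed mice, a log2 change of -2.78 ± 0.57 (SE, adjusted p = 0.00048). In both genes mouse 447 was the highest exposed mouse and mouse 48 the lowest control. Cd3e and Cd3g had log2 changes of -2.19 and -1.70. Summed over the list, the controls measured 1000.1, 1107, 346, 878 and 637 CPM and the exposed mice 158, 509, 172, 134 and 146 CPM. Without mice 447 and 48, 8 of 14 fell. Btnl2 and Btnl4, epithelial butyrophilin-like proteins that engage gamma-delta T cells, fell as well, 2 of 7 in their list. Btnl2 measured 609, 675, 293, 699.9 and 470.4 CPM in the untreated mice and 214, 207.98, 146, 157 and 206.6 CPM in the exposed mice, a log2 change of -1.56 ± 0.24 (SE, adjusted p = 1.8e-06), with no overlap.

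Of 42 interferon-induced genes 4 fell, with Psmb10 (-0.85), Psmb9 (-0.88), Ifi47 (-1.85) and Irgm2 (-1.48) on the log2 scale, and of 10 MHC class II genes Cd74 fell, at -1.03 (0.0973). The DESeq2 fit called 3 and 0 of these lists lower. Without mouse 447 the numbers were 5 and 3, and without mice 447 and 48 they were 6 and 4, with the median log2 change of the MHC class II genes going from -0.72 to -1.41 and -1.49. Of 34 inducible defence genes 7 rose and 2 fell, but 4 of the 7, Saa1, Nos2, Duox2 and Reg3g, did not pass without mouse 447. Saa1, serum amyloid A, measured 0, 13.4, 1.35, 0 and 0 CPM in the untreated mice and 0.638, 805, 2.02, 15.3 and 0 CPM in the exposed mice, and Nos2, the inducible nitric oxide synthase, measured 7.25, 0, 0, 3.40 and 1.44 CPM in the untreated mice and 3.51, 359.8, 0, 0 and 0 CPM in the exposed mice. Without mouse 447 Saa1 had a log2 change of 0.44 and Nos2 one of -1.07, and 3 members rose. Sprr1a, a barrier protein, measured 11.8, 5.005, 0, 17.4 and 34.1 CPM in the exposed mice and had 0 counts in all controls, at least 71.5-fold higher against a floor of 3 counts over the 5 controls (adjusted p = 0.00021). Sprr2a3 rose by 2.06, and its probe may share reads with other Sprr2 copies.

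Paneth cell markers fell in 5 of 11, and their summed level was 6823, 10828, 24496, 2865 and 5426 CPM in the controls and 698, 11593, 961, 3289.7 and 223 CPM in the exposed mice. The highest sum of each group belonged to mice 48 and 447. The number that fell was 2 without mouse 48, 8 without mouse 447 and 3 under DESeq2. Without both mice 7 of 11 fell, Lyz1 among them, whose log2 change of -1.41 (0.0792) became -1.99 (0.00785). Paneth cells sit at the crypt base, and the part of crypt RNA in this result was not tested. Of 14 stem and progenitor markers 2 fell, with log2 changes of -3.00 for Olfm4 and -2.005 for Slc12a2, and 1 fell without mouse 48. Goblet cell markers rose in 3 of 7 and fell in 1, and the counts were the same without mouse 447, without mouse 48 and without both. Muc2, the secreted mucin, measured 68.0, 85.1, 83.4, 154 and 242 CPM in the untreated mice and 244.2, 279.7, 179, 267 and 313 CPM in the exposed mice, a log2 change of 1.01 ± 0.27 (SE, adjusted p = 0.0121), Spink4 rose by 1.12 and Spdef by 1.35, while Ccl6 fell by 1.76.

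Of the 12 enteroendocrine markers Sct rose, at 1.41 (0.0396), and Gip fell, at -1.05 (0.0888), and neither passed without mice 447 and 48. In the smooth muscle list of 9 Mylk fell, at -0.90 (0.0822), in the stromal list of 10 Pdgfra rose, at 1.15 (0.00822), in the endothelial list of 8 Emcn rose, at 4.12 (0.0576), and in the macrophage list of 10 Cd68 rose, at 2.53 (0.0678). Without mouse 48, Mylk, Emcn and Cd68 did not pass, with adjusted p of 0.22, 0.111 and 0.156, and DESeq2 called 0 of the endothelial list. Of the smooth muscle list 3 fell without mouse 447. Smooth muscle markers summed to 1004, 1592, 2607, 1338 and 1109 CPM in the controls and to 637, 3597, 673, 586 and 587 CPM in the exposed mice, highest in mouse 447. For tuft cell, acinar, Brunner gland, plasma and B cell, and neutrophil markers edgeR called 0 of 8, 17, 3, 10 and 6 members, DESeq2 called 0 as well, and the numbers at an unadjusted p under 0.05 were 0, 0, 0, 1 and 2.

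Some genes of epithelial repair rose. Of 28 members of a list of epithelial repair and fetal-like genes 8 rose, with a median log2 change of 0.70, and the other 20 did not pass. Krt19, a keratin, measured 276, 115, 588, 167 and 305 CPM in the untreated mice and 1264, 611, 598, 877 and 942 CPM in the exposed mice, a log2 change of 1.56 ± 0.33 (SE, adjusted p = 0.0008), with mouse 48 just under the lowest exposed mouse. The epidermal growth factor receptor ligand Areg measured 12.1, 17.4, 3.24, 11.9 and 8.40 CPM in the untreated mice and 62.9, 3.89, 100.2, 104 and 65.2 CPM in the exposed mice, a log2 change of 2.73 ± 0.59 (SE, adjusted p = 0.00095), and its relative Ereg rose by 2.61. For Areg all exposed mice but 447 were above the controls. Il33, an alarmin, rose by 1.86, and Anxa10 by 5.04, with 78.4 CPM in mouse 448 and at most 6.70 CPM in any other. Among 25 junction genes Cldn2, which forms paracellular cation pores, measured 66.0, 18.8, 107, 25.5 and 78.2 CPM in the untreated mice and 344, 206.9, 241.2, 351 and 199 CPM in the exposed mice, a log2 change of 2.16 ± 0.45 (SE, adjusted p = 0.00066), and Epcam and Cdh1 rose by 1.98 and 0.73. Of the 12 genes of calcium and phosphate transport, Cldn2 and Slc34a2 rose and Vdr, the vitamin D receptor, fell by 0.94. Slc34a2 stood at 311 CPM in mouse 447 and at 0 in the other exposed mice, and without mouse 447 it was lower.

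Signalling and stress lists were mixed. Of 23 immediate early genes 5 rose, among them Fosl1, an AP-1 subunit, which measured 0, 0, 7.28, 0 and 1.20 CPM in the untreated mice and 24.9, 0, 84.02, 12.7 and 72.2 CPM in the exposed mice, a log2 change of 4.30 ± 0.77 (SE, adjusted p = 3e-05). Dusp6, a feedback phosphatase of ERK, rose by 1.44, Atf3 by 3.18 and Dusp1 by 1.78. With mice 447 and 48 left out this list had 4 higher and 3 lower. Hypoxia-induced targets split, with 6 of 28 higher and 5 lower. Glycolytic Hk2 measured 32.2, 18.4, 22.7, 8.93 and 18.5 CPM in the untreated mice and 20.7, 242, 66.7, 103 and 79.1 CPM in the exposed mice, a log2 change of 2.30 ± 0.33 (SE, adjusted p = 1.9e-07), and Aldoa and Ldha rose by 1.43 and 1.07, as did Hif1a itself, at 1.004 (0.0149). Pfkfb4, which sets fructose bisphosphate levels, fell by 1.67, Epas1 fell by 1.70 and Vegfa fell by 1.02. A list of enzymes that remove or produce oxidants, outside the NRF2 list, had 5 of 22 higher and 1 lower. The superoxide dismutases Sod1 and Sod2 rose by 1.15 and 0.73. Nos2 and Duox2, which produce nitric oxide and hydrogen peroxide, were 2 of the 5 and lost their call without mouse 447, and that fit had 6 higher and 1 lower.

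Protein folding and amino acid stress gave few calls. Heat shock genes rose in 1 of 27, Cct2, and fell in 2, Hspa4l and Hspa8. Of 24 endoplasmic reticulum stress genes Canx rose, at 0.88 (0.00188), and Herpud1 fell, at -1.31 (0.00192). Of 30 ATF4 targets and related genes Atf4 and Atf3 rose. Leaving out mice 447 and 48, the counts for heat shock were 5 higher and 1 lower. Iron handling had 1 of 18 higher, Alas1, and 2 lower, Ireb2 and Heph, and the circadian list of 19 had 1 lower. For the 20 polyamine and one-carbon genes edgeR called 0, DESeq2 called 1, and 4 had an unadjusted p under 0.05.

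Of 30 p53 targets 3 rose and 2 fell. Cdkn1a, the p21 cell cycle inhibitor, measured 27.0, 49.3, 15.1, 58.3 and 49.4 CPM in the untreated mice and 61.9, 48.4, 69.9, 77.2 and 108 CPM in the exposed mice, a log2 change of 0.90 (0.112), and Trp53 itself had one of -0.08 (0.933). Plk2, Tnfrsf10b and Bax rose by 2.30, 2.82 and 0.76, and Gadd45a fell by 0.82. The split of this list was 1 higher and 5 lower without mouse 48, 4 and 1 without mouse 447, and 1 and 4 without both. Of 41 DNA repair genes 3 fell, among them Ercc4 and Xrcc6, with log2 changes of -0.997 for Ercc4 and -1.08 for Xrcc6. Of 44 S phase and mitosis genes 5 fell and Cdc6 rose. The number that fell was 2 without mouse 48, 8 without mouse 447 and 4 without both, and the proliferation marker Mki67 had a log2 change of -0.57 (0.483). Cell division takes place mainly in the crypt, and the control that carried crypt genes, mouse 48, had the highest Hmgb2 of the group, at 299.7 CPM against 106, 85.8, 299.7, 93.2 and 151 CPM in all 5. The part of crypt RNA in the S phase and mitosis result was not tested.

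Many genes of protein synthesis and respiration rose. Of 79 cytosolic ribosomal protein genes 24 rose, with a median log2 change of 0.630, and this count went to 36 without mouse 447, to 48 without mouse 48 and to 58 without both. Rps29 measured 168, 118, 258, 120.0 and 251 CPM in the untreated mice and 359, 323.1, 402.8, 371 and 309 CPM in the exposed mice, with no overlap, and Rplp0 measured 285, 179, 585, 179 and 348 CPM in the untreated mice and 581, 319.8, 739, 693 and 794 CPM in the exposed mice. Their log2 changes were 0.94 ± 0.23 (SE, adjusted p = 0.00388) and 0.98 ± 0.23 (SE, adjusted p = 0.00347), and mouse 48 was the highest control for both. Ribosomal protein genes have many processed pseudogenes, whose transcripts their probes may also count. Of 49 initiation factor genes 11 rose and 1 fell, with Eif4a3 at 1.26 and Eif4ebp1 at 1.79. Of 79 genes for subunits of oxidative phosphorylation 17 rose and 1 fell. Ndufb6 measured 315, 252, 325.1, 205 and 291 CPM in the untreated mice and 515, 265, 602, 606 and 689.5 CPM in the exposed mice, a log2 change of 0.95 ± 0.19 (SE, adjusted p = 0.00034), and Cox5b and Atp5k rose by 1.28 and 1.19. Without mouse 447, 32 rose.

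The proteasome list had 6 of 48 higher and 3 lower, and the lower ones included the immunoproteasome subunits Psmb9 and Psmb10. Mitochondrial ribosomal proteins had 7 of 75 higher and 1 lower, aminoacyl-tRNA synthetases 1 of 17 higher, or 3 without mouse 48, and genes of RNA polymerase I and the nucleolus 2 of 46 higher, Polr1d and Taf1d. The last of these had 6 higher without mouse 48, and 7 higher and 1 lower without mice 447 and 48. That fit had 11 higher proteasome genes and 13 higher mitochondrial ribosomal protein genes. With DESeq2 size factors in place of TMM, 31 cytosolic ribosomal protein genes, 22 respiratory subunit genes and 13 cholesterol genes rose. The fit of the 10 libraries alone tested 9820 genes and gave fewer calls. It had 5 cytosolic ribosomal protein, 6 respiratory subunit, 5 cholesterol and 6 NRF2 genes higher. Lower in it were 2 villus enterocyte, 2 brush border, 3 T cell and 1 Paneth cell genes. On the main probe that fit called 134 genes higher and 183 lower.

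**Figure D4:**
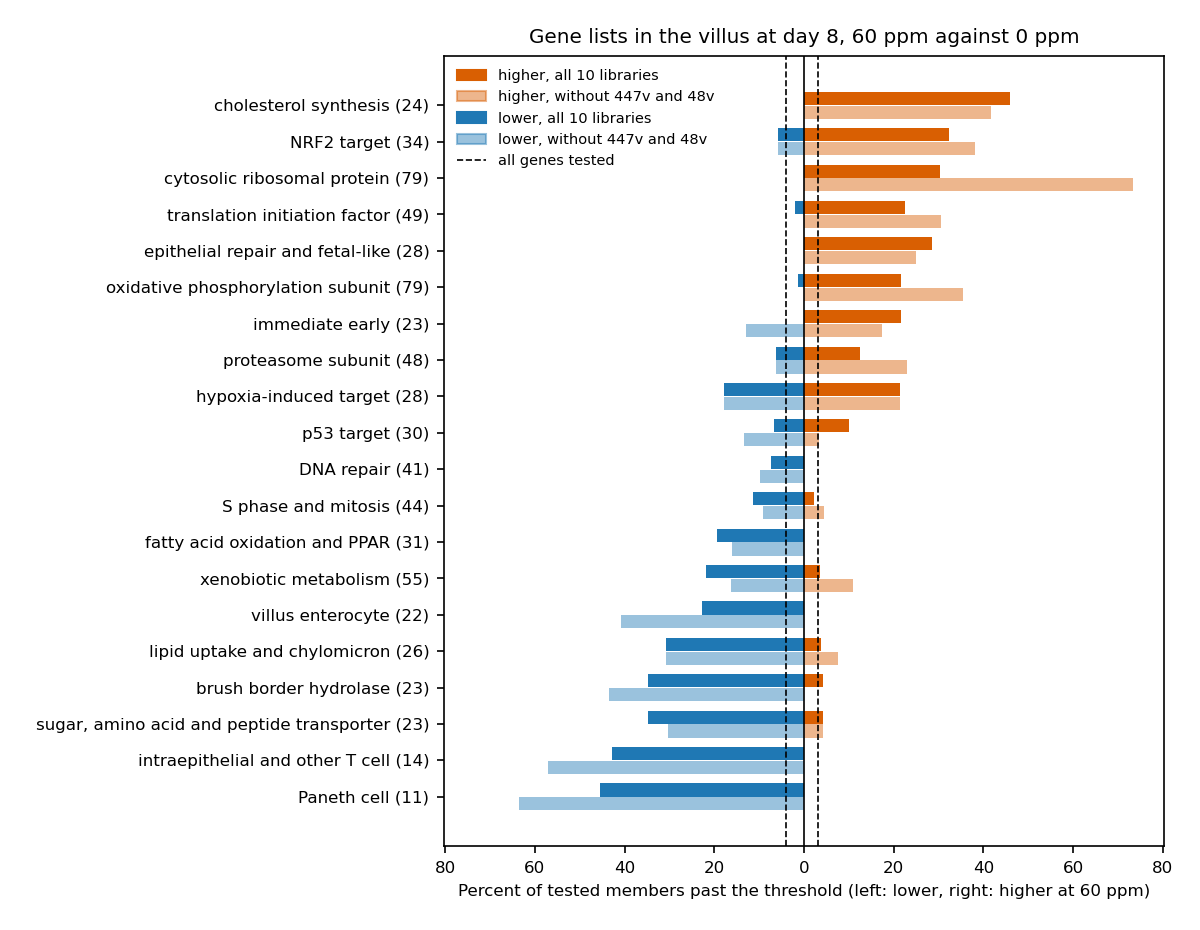
Percent of the tested members of 20 gene lists, with their number in parentheses, that were past the adjusted p of 0.1 and higher (right) or lower (left) at 60 ppm against 0 ppm. Solid bars are from all libraries and pale bars from the fit without the villus libraries of mice 447 and 48; dashed lines are the shares over all genes, 3.03% higher and 4% lower. Of these lists, ribosomal proteins change most between the fits, from 24 to 58 of 79.

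The comparison with 180 ppm addressed whether expression differed further at the next dose. In the villus at day 8, 112 genes differed between 180 and 60 ppm, 56 in each direction, a share of 0.232% higher and 0.226% lower on the main probe. Of the 5 genes lower at 180 ppm with the smallest adjusted p, all were high at 60 ppm in mouse 447 alone. They were Fabp6, Tmigd1, Slc10a2, Saa1 and Nos2, and the other 4 mice at 60 ppm measured at most 15.3 CPM of any of them. Without it 109 genes differed, 63 higher and 46 lower, of which 62 were shared. On the higher side Gm42742 measured 30.9 ± 11.3 CPM at 180 ppm (mean ± SD, n = 4) and 7.04 ± 4.03 CPM at 60 ppm (n = 5), a log2 difference of 2.03 ± 0.38 (SE, adjusted p = 0.00086). The replication factor Orc6 measured 48.9 ± 15.7 and 11.03 ± 6.15 CPM, a log2 difference of 2.23 ± 0.42 (SE, adjusted p = 0.00125). The trypsinogen genes Gm2663 and Gm5771, of the kind made by the acinar cells of the pancreas, measured 160.8 ± 149.5 and 351 ± 395 CPM at 180 ppm and 6.15 ± 5.93 and 24.3 ± 24.4 CPM at 60 ppm. The 17 acinar markers summed to 11026, 9820.2, 957 and 139 CPM in the 4 libraries at 180 ppm and to 11921, 35.6, 11378, 5080.3 and 291 CPM at 60 ppm, and their part in this difference was not tested. Kctd1 had 44.9 ± 89.8 CPM at 180 ppm, a spread that puts nearly all of it in 1 of the 4 libraries, and 0 counts at 60 ppm. The fit of these 9 libraries alone called 1 gene, with 941 probes at an unadjusted p under 0.05, and DESeq2 called 843.

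The 20, 60 and 180 ppm groups, of 4, 5 and 4 mice, share their 5 controls, so their changes are given side by side. The changes at 5, 20 and 180 ppm were computed with all libraries only, mouse 48 among the controls. Over all genes, 1.13% were higher and 1.75% lower at 20 ppm, and 2.82% and 3.67% at 180 ppm. In that order of dose, Pck1 had log2 changes of -4.06, -5.52 and -5.91, and Epha2 had changes of 1.91, 2.38 and 2.14. Mt2 had 1.84, 4.60 and 4.80, and its adjusted p of 0.422 at 20 ppm did not pass. At 5 ppm 2 of the 23 leading genes passed, Tsc22d3 at -1.73 and Nup50 at 1.24. Tested directly between 180 and 60 ppm, 1 of the 23 leading genes differed, Gm42742.

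**Figure D5:**
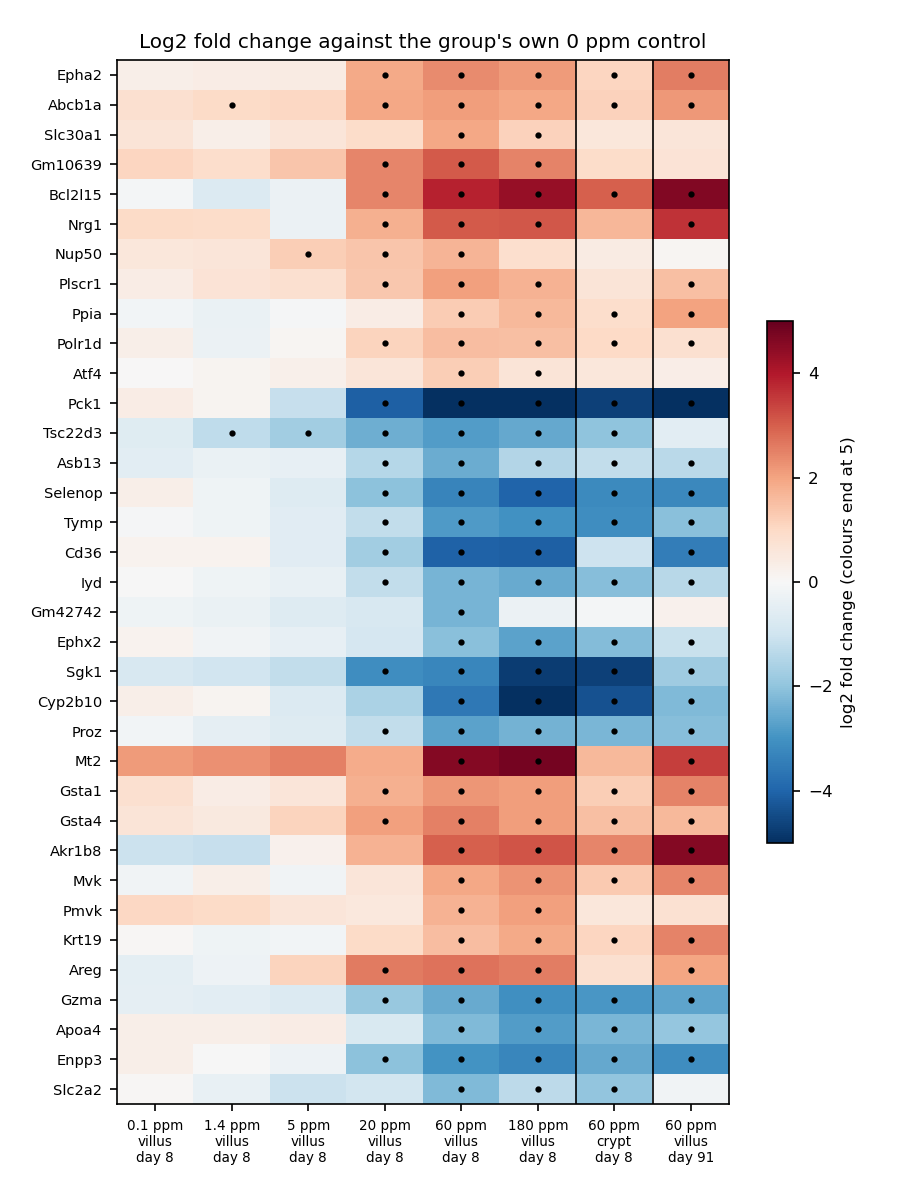
Log2 fold change against the untreated group of the same compartment and day, as colour, for the 23 leading genes and 12 genes of the lists, in the villus at 6 doses on day 8, in the crypt at 60 ppm on day 8 and in the villus at 60 ppm on day 91. A dot marks an adjusted p under 0.1. All villus columns of day 8 share 5 control mice; in the first 3 dose columns at most 2 genes carry a dot, against 35 genes at 60 ppm, which chose them.

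The comparison with the crypts of the same mice addressed whether the effect differed between the compartments. The effect of 60 ppm at day 8 differed between villus and crypt in 7 genes, 2 with a more positive effect in the villus and 5 with a more negative one, 0.0105% and 0.0263% of genes. With the mouse as a block, since crypt and villus came from the same animals, 94 genes differed, 35 and 59, including all 7. Mcm2, a replication helicase subunit, measured 43.0 ± 22.3 CPM in untreated and 11.9 ± 6.82 CPM in exposed villus, and 57.0 ± 22.8 and 105 ± 24.6 CPM in untreated and exposed crypt (mean ± SD, n = 5 each). Its difference of effects was -2.79 ± 0.61 (SE, adjusted p = 0.058) on the log2 scale. Orc6 had a difference of -2.32 ± 0.52 (SE, adjusted p = 0.0762), with 52.98 ± 17.4 CPM in untreated and 73.9 ± 17.7 CPM in exposed crypt. Gm42742 had a difference of -2.23. Ibsp, a bone sialoprotein, had 0 counts in the untreated villi and 5.43, 0, 31.1, 15.7 and 19.6 CPM in the exposed villi. Ciapin1, an iron-sulfur assembly factor, measured 4.43, 3.69, 2.43, 0 and 6.48 CPM in the untreated mice and 11.8, 8.34, 21.8, 20.4 and 23.6 CPM in the exposed mice. Gkn3 and Muc6, genes of gastric and Brunner-type glands, had 92.2 and 633 CPM in exposed crypts and 5.70 and 14.0 CPM in untreated crypts, with SDs of 191 and 1401 among the exposed.

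The count of genes that differed between compartments moved with the libraries. Without the villus library of mouse 447 it was 103 and without both libraries of that mouse 64, and 7 were shared in each case. Without the villus libraries of mice 447 and 48 it was again 7, of which 3 were shared. The crypt library of mouse 49 was villus-like, with 335 CPM of Lyz1 and 7353 CPM of Apoa4 against medians of 2223 and 2463 CPM over all crypts. Without it, both libraries of mouse 447 and the villus of mouse 48 the count was 8, of which 2 were shared. The fit of the 20 libraries alone called 0, with 972 probes at an unadjusted p under 0.05, and DESeq2 called 84. In the crypt, where 0.858% of genes were higher and 1.5% lower at 60 ppm, the log2 change was -4.66 for Pck1 and 1.06 for Epha2, and the villus change of Cd36, -4.03, stood beside a crypt change of -1.04 (adjusted p = 0.343). The difference for Cd36 had an adjusted p of 0.167.

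The comparison with exposure for 90 days addressed whether the effect differed between the times. The effect of 60 ppm in the villus differed between day 8 and day 91 in 2307 genes, 581 with a probe more positive at day 8 and 1760 with a probe more negative, with 2.02% and 8.17% of genes on the main probe. The median difference over all probes was -0.58, which shrank to -0.19 with DESeq2 size factors, and the split then turned to 1141 and 753. Directions in this paragraph therefore depend on the scaling unless a difference is much larger than that shift. Without mouse 48 the count was 1477, and without mice 447 and 48 it was 1401. With log10 total count as a covariate the count was 1636, split 595 and 1055. Depth went with exposure at day 91. Exposed villi had 2902207 to 6749336 counts and 17636 to 21452 probes detected, and untreated villi 1667014 to 2678299 and 13091 to 15835. At day 8 the ranges of the groups overlapped. The part of depth in the difference between days was not tested beyond that covariate. The chaperone Hspa8 measured 415 ± 125 and 263 ± 55.2 CPM in untreated and exposed villus at day 8 (n = 5 each) and 215 ± 119 and 687 ± 134 CPM at day 91 (n = 4 and 5), a difference of -2.32 ± 0.35 (SE, adjusted p = 1.6e-05). The arginine demethylase family member Jmjd6 had a difference of -2.90, Mat2a, which makes S-adenosylmethionine, -1.91, the histone methyltransferase Kmt2d -1.70 and Mkln1 -3.05.

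On the other side, Btnl6 measured 475 ± 174 and 383 ± 193 CPM at day 8 and 712 ± 119 and 121 ± 11.4 CPM at day 91, a difference of 2.24 ± 0.39 (SE, adjusted p = 0.00012). Tap2, a peptide transporter of antigen presentation, measured 40.8 ± 18.97 and 31.1 ± 18.3 CPM at day 8 and 109 ± 27.1 and 7.53 ± 5.18 CPM at day 91, a difference of 3.36 ± 0.60 (SE, adjusted p = 0.00015). Bcl2l2 and Clca4b had differences of 2.90 and 2.60. At day 91, 11.6% of genes were higher and 4.94% lower than in the controls of that day, whose libraries were all shallower. Of the leading genes, Tsc22d3 had -2.79 at day 8 and -0.51 at day 91, a tested difference of -2.29 ± 0.46 (SE, adjusted p = 0.00059). Nup50 had 1.70 and 0.099, a difference with an adjusted p of 0.00804, and Slc30a1 had 1.92 and 0.59, with 0.044. Pck1 stood at -5.89, Epha2 at 2.57 and Mt2 at 3.47 on day 91, and these 3 did not pass in the test between the days (adjusted p of 0.909, 0.919 and 0.686).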

How the data were processed

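Raw TempO-Seq counts for 30146 probes of 21450 genes in 137 libraries from 71 mice and 28 groups were used as the authors deposited them, with no normalization. Per the labels, single-end reads of 50 bases were demultiplexed with bcl2fastq 2.17.1.14 and aligned to the probes with Bowtie, whose version is not given in the sources used here. All count columns were mapped to samples by name. A probe count measures only the sequence its probe binds, which close paralogs may share. Floors cover counting error only, whereas SE and SD also take in the spread between mice, and 3 counts made 0.72 to 1.67 CPM in these 10 libraries.

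Counts were fitted with edgeR 4.0.16 in R 4.3.3 (TMM, filterByExpr, quasi-likelihood F test in its current form, all 28 groups, prior count 0.125), and p-values were adjusted by the Benjamini-Hochberg method over 26365 probes with a threshold of 0.1. A gene was counted once per direction, and for gene lists and named genes the probe with the highest total stood for it. SE is the absolute log2 change divided by the square root of F. Alternatives were DESeq2 1.42.0, its size factors in edgeR, other sample sets, other filters, a depth covariate, summed probes, the earlier form of the fit, and each replicate left out. Leaving out mice 447 and 48 was chosen after seeing the data.

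Named genes were the 12 higher and 12 lower with the smallest adjusted p among those with a mean of at least 10 CPM and no overlap, up to 4 members per list by adjusted p, a few fixed genes, and 5 in each direction for the other contrasts. Some genes are not reported here and were not replaced, and counts over gene lists include them. Further list members were named after their values were seen, as were the tables of ileal and crypt markers. The samples and all 53 gene lists were chosen with earlier results of these data known. Crypt and villus libraries of a mouse come from the same animal, and the correlation of their deviations from the group means ran from -0.0041 to 0.365 over the 10 mice, so the mouse was also fitted as a block. Promoters and coordinates came from RefSeq on GRCm38.p6, since the build behind the probes is not given in the sources used here.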

Additional observations from a re-analysis of the deposited data

Results flagged for a closer look

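In 21 of 140 groups of 5 libraries, 1 library lay farther from the others than Dixon's 95% critical value of 0.71 allows. The groups covered library totals, probes detected, and the CPM of genes and sums chosen for the text, all in the same 10 libraries. No chance rate can therefore be set beside this count. Mouse 447 was that library in 13 of the 21. It was the highest exposed library for the summed markers of Paneth cells (11593 CPM), T cells (508.8 CPM) and smooth muscle (3597 CPM), and for Fabp6 (19907 CPM), Saa1 (805 CPM), Naaladl1 (677 CPM), Selenop (598 CPM), Nos2 (359.8 CPM), Sqle (227 CPM), Gzma (199 CPM) and Trdc (28.9 CPM). It was the lowest for Gm10639 (14.5 CPM) and Gm42742 (0 CPM). Mouse 48 was the lowest control for Cyp2b10 (321 CPM) and Enpp3 (241 CPM) and the highest for Fosl1 (7.28 CPM). Of the other controls, mouse 47 was the highest for Hmox1 (6.03 CPM) and Saa1 (13.4 CPM), mouse 50 the highest for Plin2 (392 CPM) and mouse 46 the lowest for Plscr1 (14.1 CPM). Mouse 450 was the highest exposed library for Mvk (92.4 CPM).

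The effect of 60 ppm at day 8 differed between villus and crypt, by edgeR's interaction test with an adjusted p under the threshold, for Ibsp (14.82 on the log2 scale), Ciapin1 (3.21), Gkn3 (-7.33), Muc6 (-6.50), Mcm2 (-2.79), Orc6 (-2.32) and Gm42742 (-2.23). The values for Ibsp and Gkn3 come from groups at or near 0 counts and depend on the prior count. For Gkn3 and Muc6 the SD among the exposed crypts was larger than the mean, so the exposed mice were very uneven. Of these 7 genes, 2 were shared by the fit without both libraries of mouse 447, the villus of mouse 48 and the crypt of mouse 49.

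The same test between day 8 and day 91 in the villus gave, among the genes named, Tap2 (3.36), Bcl2l2 (2.90), Clca4b (2.60) and Btnl6 (2.24) as more positive at day 8, and Mkln1 (-3.05), Jmjd6 (-2.90), Hspa8 (-2.32), Mat2a (-1.91) and Kmt2d (-1.70) as more negative.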

How the results depend on the processing

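The count of 1581 genes at 60 ppm stayed within 1.5 times under 10 alternatives and under each replicate left out (1076 to 1981), and was 370 with the 10 libraries alone, 742 with the villus libraries of day 8, and 1039 with the 10 alone less mice 447 and 48. The 112 genes between 180 and 60 ppm became 1 with those libraries alone, 11 with the villus libraries of day 8, 239 with a mean count of at least 10, 843 under DESeq2, and 51 to 237 with a replicate left out. The 2307 genes between days became 1255 alone, 1114 with villus libraries of both days, 4013 with the earlier form of the fit, 1401 without mice 447 and 48, 1534 without mouse 447, the villus of mouse 48 and the crypt of mouse 49, and 1477 to 2497 with a replicate left out. The cause was not tested.

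The 7 genes between villus and crypt became 94 with the mouse as replicate block, the pairing of crypt and villus in 1 animal. They became 0 alone and 0 with the libraries of day 8, 84 under DESeq2, 25 with a mean count of at least 10, 3 with summed probes, 3 with the earlier form of the fit, 64 without mouse 447, and 2 to 103 with a replicate left out.

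Of 164 genes named as changed at 60 ppm, none reversed under DESeq2, another scaling, filter or covariate. The number no longer past the threshold was 9 under DESeq2, 4 with its size factors, 22 with the earlier form of the fit, 60 of 151 with the 10 libraries alone, 32 with the villus libraries of day 8, and 12 to 29 with a replicate left out, beside the reversals. Without mouse 447, 5 reversed. Without both its libraries the log2 changes were -0.40 for Fabp6, -0.85 for Naaladl1, -1.07 for Nos2, -8.83 for Slc34a2 and -0.38 for Tmigd1, and values without its villus library alone were the same to 2 decimals for these 5 genes. Without the villus of mice 447 and 48 they were -0.72 for Naaladl1, -1.45 for Nos2, -9.17 for Slc34a2 and -0.75 for Tmigd1. Leaving out the crypt of mouse 49 and both libraries of mouse 447 with mouse 48 gave -0.72, -1.44, -9.18 and -0.75, and the 10 libraries alone less mice 447 and 48 gave -0.70 for Naaladl1. Over each replicate left out in turn these log2 changes ran from -0.40 to 12.86 for Fabp6, -0.85 to 3.06 for Naaladl1, -1.07 to 5.92 for Nos2, -8.83 to 3.01 for Slc34a2 and -0.38 to 6.84 for Tmigd1. Depth limits low genes, since 3 counts made up to 1.67 CPM.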
